A study of Mus musculus with 15 samples.

Results

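The 37 genes described here are the immediate-early genes and the feedback genes of the ERK pathway, taken from a list of symbols and not from measured values. They were followed in serum-starved mouse embryonic fibroblasts of 4 genotypes: p27 knock-out on 4 arrays, stathmin knock-out on 4, a double knock-out without either gene on 3, and wild type on 4. p27, the product of Cdkn1b, inhibits cyclin-dependent kinases, and stathmin, the product of Stmn1, binds tubulin and destabilises microtubules. All cells were on a C57B6 strain background, came from embryos at 13.5 days, and were harvested at passage 3 and high confluence after 24 h without serum. Each array set a Cy5-labelled sample against a Cy3-labelled pool of fibroblast RNA, so every level below is a log2 ratio of sample over that pool. Arrays of a genotype are biological replicates according to the labels, which do not say whether they came from separate embryos. Nor do they describe the deleted parts of the 2 genes. Of the 37 symbols, 36 were matched to 52 probes among the 41174 on the array, and 35 genes (50 probes) could be tested beside 18710 genes in all. Dusp5 was not measured here. The only probe for Nr4a3, a nuclear receptor, was well above background on 1 array and was not tested. The probe that stood for each of the 35 tested members was well above background on all 15 arrays, so none of them entered through a single genotype.

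Immediate-early genes are switched on within minutes of a growth signal without new protein synthesis. Serum and growth factors act through Ras, Raf, MEK and ERK on ternary complex factors and serum response factor, which sit at the promoters of Fos, Egr and related genes, while cyclic AMP and stress kinases act on CREB and ATF proteins. The first products are mostly transcription factors. A second set feeds back on the signal: dual-specificity phosphatases remove the activating phosphates of MAP kinases, Sprouty and Spred proteins dampen Ras and Raf, and Etv4 and Etv5 carry the ERK response to further genes. In fibroblasts kept without serum their mRNA is usually low, and it rises briefly when growth factors return.

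The promoters were searched for the elements of these inputs. Promoter sequences from RefSeq (GRCm38.p6) were matched for 28 of the 37 members and read on both strands over the 250 bases before the annotated start. These 28 members had 35 promoters, and a member was counted if any of its promoters matched. The percentages count each promoter on its own, so members and percentages are not in the same unit. The CArG box, the binding site of serum response factor, was found in 3 members (Dusp5, Egr2 and Zfp36) and in 1.47% of all 32851 promoters. The cyclic AMP element TGACGTCA was found in 3 members (Btg2, Dusp1 and Maff) and in 1.55% of all promoters. Its half-site TGACG, which the full element contains, was found in 15 members and in 17.8% of all promoters. The EGR site GCGNGGGCG was found in 10 members and in 4.7% of all promoters, the ETS core CCGGAA in 3 members and 12% of promoters, and the AP-1 site TGANTCA in no member and 6.75% of promoters. A match describes letters only, and a missing one says nothing of more distant sites. The stretches below come from 5 members and are read in the direction of the gene. They are shown because they carry the elements through which growth signals and cyclic AMP are known to act, which stand in capitals: the half-site TGACG for Fos (chr12:85473741-85473860, plus strand), the CArG box for Egr2 (chr10:67537446-67537565, plus strand) and Zfp36 (chr7:28379229-28379348, minus strand), and TGACGTCA for Dusp1 (chr17:26508516-26508635, minus strand) and Btg2 (chr1:134079222-134079341, minus strand).
Fos: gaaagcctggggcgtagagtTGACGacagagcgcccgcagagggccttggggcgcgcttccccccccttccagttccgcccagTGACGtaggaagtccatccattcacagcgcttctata
Egr2: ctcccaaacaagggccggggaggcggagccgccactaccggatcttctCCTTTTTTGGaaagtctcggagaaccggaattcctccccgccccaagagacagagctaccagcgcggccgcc
Zfp36: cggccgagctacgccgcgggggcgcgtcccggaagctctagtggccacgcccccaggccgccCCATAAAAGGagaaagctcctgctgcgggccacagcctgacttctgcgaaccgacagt
Dusp1: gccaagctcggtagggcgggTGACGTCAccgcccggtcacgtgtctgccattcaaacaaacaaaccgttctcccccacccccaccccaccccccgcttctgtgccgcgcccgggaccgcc
Btg2: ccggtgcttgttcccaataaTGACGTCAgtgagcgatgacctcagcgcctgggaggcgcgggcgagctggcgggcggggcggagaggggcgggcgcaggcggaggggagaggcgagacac

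The number of arrays limits the precision throughout. Between 59.3 and 78.9% of the spots of an array were well above background in the sample channel. Each of the 4 slides carried 1 array per genotype, except that slide 2 had no double knock-out. Since each genotype kept its place on every slide, place and genotype cannot be told apart. The 2 Stmn1 probes disagreed. The dimmer one followed the labels, at -2.78 ± 0.15 (SD, n = 4) in stathmin knock-out cells and -2.77 ± 0.08 (n = 3) in cells lacking both genes, against 0.76 ± 0.10 (n = 4) in wild type. The brighter one did not separate the genotypes, at -0.51 ± 0.36 (n = 4) without stathmin alone and -0.24 ± 0.19 (n = 3) without both, against -0.10 ± 0.34 (n = 4) in wild type. Values of the brightest Cdkn1b probe overlapped, at -0.34 ± 0.52 (n = 4) where p27 alone was deleted and -0.75 ± 0.83 (n = 3) where both genes were, against 0.22 ± 0.50 (n = 4) in wild type. A dimmer Cdkn1b probe, well above background on 3 arrays, did not overlap between these genotypes and wild type. It read -0.15 ± 0.04 (n = 4) and -0.13 ± 0.05 (n = 3) in the same order, against 0.26 ± 0.06 (n = 4) in wild type. With stathmin alone deleted it read 0.53, 0.22, 0.07 and -0.13, the last inside the p27 knock-out range of -0.20 to -0.10. Another Cdkn1b probe, well above background on 2 arrays, did not follow the labels. Its mean was 0.10 ± 0.32 (n = 4) with p27 alone deleted and -0.10 ± 0.16 (n = 3) with both deleted. Wild type read -0.08 ± 0.05 (n = 4) on it, and the values overlapped. Wild type 3 and 4 were the most alike of all 105 pairs of arrays in the members. The median gap between their log2 ratios was 0.22. Their correlation was 0.752 across all genes, and genes are not independent replicates. Whether these 2 arrays came from separate embryos is not given. The median of the members in each comparison with wild type is therefore also given with these 2 arrays averaged. Fibroblast markers read highest on p27 knock-out 2 and stathmin knock-out 2 (mean log2 ratio of 12 genes 1.52 and 1.20, against -0.26 to 1.00 on the other arrays), and proliferation markers read lowest on the same 2 arrays (mean of 9 genes -0.90 and -1.20, against -0.57 to 0.53). Macrophage and blood markers ranged from -2.92 on p27 knock-out 3 to 1.78 on p27 knock-out 2 (mean of 12 genes). The part of these markers in the results was not tested. In RNA from whole cultures, fewer cells of a type and less RNA per cell cannot be told apart.

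The members differed widely between cultures of the same genotype, and mostly together. Over the 15 arrays the SD of a member's log2 ratio had a median of 0.836, against 0.317 over all tested genes, and 22 of the 35 members lay above the 90th percentile of SD. Genotype accounted for a median of 12.5% of a member's variance over arrays, against 17.4% for all genes. Such shares, here and below, are not corrected for the number of groups. Group means take up part of the variance even where genotype has no effect. Arrays of the same genotype had a median member gap of 0.905 (21 pairs), and arrays of different genotypes 0.746 (84 pairs).

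A single array stood highest for most genes. Stathmin knock-out 2 held the highest value of 20 of the 35 members, with a median member level of 1.24, and 28 of its 35 members were above the reference pool. p27 knock-out 4 held the lowest value of 11 members, with a median of -1.11 and 3 members above the pool. The median member level on the other p27 knock-out arrays was 0.44, -0.00135 and -0.34 in replicates 1 to 3. On the other stathmin knock-out arrays it was -0.97, -0.44 and -0.23 in replicates 1, 3 and 4. On the double knock-out arrays it was -0.38, -0.94 and -0.49, and on the wild type arrays -0.96, -0.25, 0.32 and 0.35. The p27 knock-out, stathmin knock-out and wild type cultures thus each ran from about 1 below the pool to above it, and the 3 double knock-out cultures all lay below the pool, inside the range of the other genotypes. Over all tested genes the median of an array stayed between -0.04 and 0.01.

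**Figure D1:**
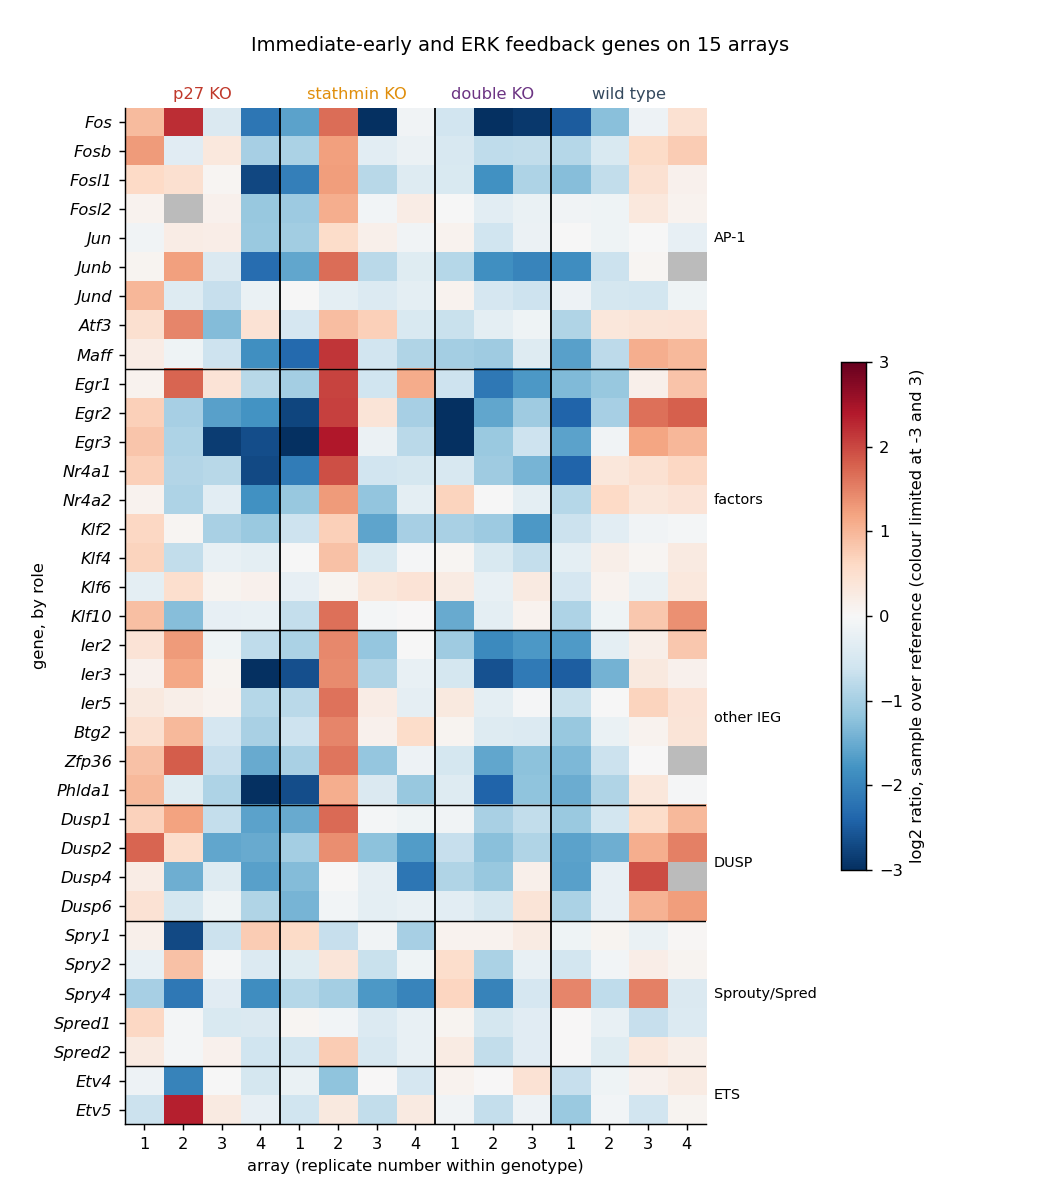
Log2 ratio of sample over reference pool for the 35 tested members (rows, by role) on the 15 arrays (columns, by genotype and replicate number), with colours limited at -3 and 3 and grey for values left out as outlier spots. The column of stathmin knock-out 2 is red for most genes, those of p27 knock-out 4, stathmin knock-out 1, wild type 1 and double knock-out 2 are mostly blue, and Spry4, near the bottom, is blue on all p27 knock-out and stathmin knock-out arrays.

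No member passed the threshold of an adjusted p under 0.05 in any of the 6 comparisons (limma, Benjamini-Hochberg over all tested genes). For p27 knock-out against wild type, 0 of 35 members and 0% of the 18681 genes tested passed. At an unadjusted p under 0.05 there was 1 member, Spry4, which was lower, against 2.58% of all genes higher, 3.14% lower and 5.72% in either direction. Differences were above 0 for 14 members and below 0 for 21, against 52.7% and 47.3% of all genes, with a median of -0.08 for the members and 0.01 for all genes. In no member did the 4 p27 knock-out arrays stay clear of the 4 wild type arrays, against 1.01% of genes on the higher side and 1.22% on the lower.

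For stathmin knock-out against wild type, 0 of 35 members passed, against 0.00535% of all genes (1 gene). Spry4 again was the 1 member at an unadjusted p under 0.05, lower in the knock-out, against 1.97% of all genes higher, 2.79% lower and 4.77% in either direction. It was also the only member whose 2 groups did not overlap, on the lower side, where 1.51% of all genes lay. Differences were above 0 for 15 members and below 0 for 20, against 51.9% and 48.1% of all genes, with a median of -0.06 for the members and 0.01 for all genes. The median members' differences changed sign when 1 array was left out. For p27 knock-out against wild type the median was 0.12 without wild type 3, 0.01 without wild type 4 and 0.19 without p27 knock-out 4, and -0.000603 with wild type 3 and 4 averaged. For stathmin knock-out against wild type it was 0.34 without stathmin knock-out 1, 0.02 without stathmin knock-out 3, -0.46 without stathmin knock-out 2, 0.08 without wild type 3 and 0.12 without wild type 4, and 0.08 with these 2 averaged. Within a slide the median difference of the members ran from -1.50 to 1.44 over 4 slides for p27 knock-out against wild type and from -0.86 to 1.60 for stathmin knock-out against wild type, above 0 on 2 slides in each.

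In double knock-out cells most members had a mean below that of wild type, and none of these differences passed. Differences were below 0 for 28 of the 35 members and above 0 for 7, against 50.7% and 49.3% of all genes, with a median of -0.57 for the members and -0.00341 for all genes. Passing genes were 0% of all genes as well, and no member reached an unadjusted p under 0.05, against 2.33% of all genes in either direction. The 3 double knock-out arrays lay below all 4 wild type arrays for Klf2 alone, where 3.5% of all genes did so, and above them for Spry1 alone, where 2.85% did so. The median was -0.31 without wild type 3, -0.35 without wild type 4, -0.37 with these 2 averaged, -0.38 without double knock-out 2 and -0.83 without wild type 1. It did not hold within every slide: the median was 0.71 on slide 1, -1.32 on slide 3 and -0.92 on slide 4. The 3 comparisons with wild type share the same 4 wild type arrays, so their differences are not independent of one another.

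Compared with p27 knock-out cells, double knock-out cells read lower for 27 members and higher for 8, where 52.3% and 47.7% of all genes did so, with a median of -0.26 for the members and -0.01 for all genes. None passed (0% of all genes). Ier2 and Egr1 were lower at an unadjusted p under 0.05, against 1.53% of all genes higher, 1.47% lower and 3% in either direction. Ier2 stayed below all p27 knock-out arrays, as did 1.74% of all genes, and Etv4 above them, as did 1.4%. Against stathmin knock-out, 29 members were lower and 6 higher, where 50.9% and 49.1% of all genes were, with a median of -0.47 for the members and -0.00491 for all genes. None passed (0% of all genes), Egr1 alone was lower at an unadjusted p under 0.05 (2.21% of all genes lower, 3.89% in either direction), and Etv4 alone stayed clear, on the higher side (2.31% of all genes, with 3.04% on the lower side). That median was -0.04 without stathmin knock-out 2 and -0.19 without double knock-out 2, and the median against p27 knock-out was -0.06 without p27 knock-out 1, -0.57 without p27 knock-out 4, -0.39 without p27 knock-out 3, -0.44 without double knock-out 1 and -0.43 without double knock-out 3. Within slides 1, 3 and 4 the median of the members was -0.80, -0.42 and 0.56 against p27 knock-out, and 0.50, -0.45 and -0.13 against stathmin knock-out, so neither kept its sign on every slide.

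The interaction asks whether the loss of both genes differs from the sum of the 2 single losses. It was above 0 for 10 members and below 0 for 25, against 47.3% and 52.7% of all genes, and 0 members passed (0% of all genes). At an unadjusted p under 0.05 there were 2 members, Spry4 above 0 and Egr1 below 0, against 3.8% and 3.56% of all genes, or 7.36% in either direction. The median of the members was -0.27, and it was -0.57 without stathmin knock-out 1 and 0.07 without stathmin knock-out 2, the ends of its range leaving out 1 array. The members' own spread set these limits: the 95% interval of a member's difference reached a median of 1.22 log2 units to either side for the 2 single knock-outs against wild type, 1.32 for the 3 comparisons of double knock-out and 1.79 for the interaction. For all genes it reached 0.48, 0.48, 0.52, 0.52, 0.51 and 0.70 in the 6 comparisons in turn. Those bounds are for 1 gene before adjustment. In members of median spread an observed difference within them could not pass, and passing over all genes asked for a larger one.

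**Figure D2:**
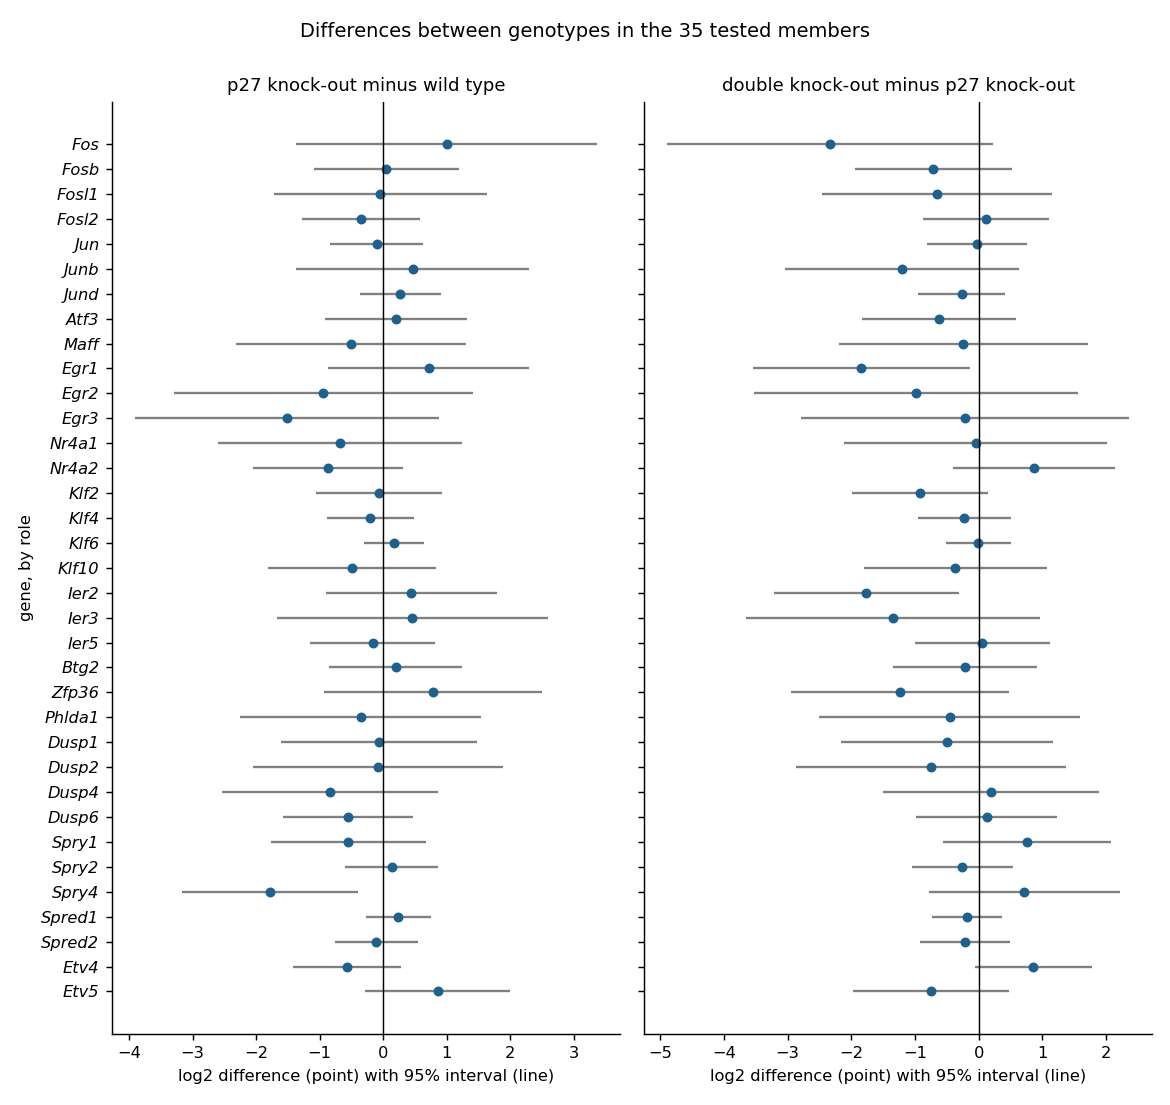
Log2 difference (point) and 95% interval (line) of each of the 35 tested members for p27 knock-out minus wild type (left) and double knock-out minus p27 knock-out (right). Most intervals cross 0, the widest belong to Fos, Egr2 and Egr3, and Spry4 on the left and Ier2 and Egr1 on the right lie below 0 before adjustment over all genes.

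The AP-1 subunits are basic leucine zipper proteins that bind DNA as Fos-Jun and Jun-Jun pairs, joined here by Atf3, a stress-induced family member that often represses, and Maff, a small Maf protein without an activation domain. Fos read 0.95, 2.22, -0.43 and -2.17 on the 4 p27 knock-out arrays, -1.61, 1.67, -3.06 and -0.10 on the 4 stathmin knock-out arrays, -0.58, -3.09 and -2.91 on the 3 double knock-out arrays, and -2.49, -1.25, -0.16 and 0.46 on the 4 wild type arrays. Its range of 5.31 log2 units was spread within genotypes: p27 knock-out and stathmin knock-out each held arrays far above and far below the pool, and only the double knock-out had no array above it. Relative to wild type, Fos differed by 1.00 in p27 knock-out (SE 1.10, adjusted p = 0.848 in limma) and by -2.33 between double knock-out and p27 knock-out (SE 1.19, 95% interval -4.89 to 0.23, adjusted p = 1). Junb, a Jun protein that is a weaker activator than Jun, read 0.07, 1.23, -0.43 and -2.28 in p27 knock-out, -1.56, 1.68, -0.81 and -0.37 in stathmin knock-out, -0.84, -1.85 and -1.99 in double knock-out, and -1.86, -0.64 and 0.05 on wild type 1 to 3, its spot on wild type 4 being left out. The double knock-out values were low, lay within the p27 knock-out range and overlapped the other 2 genotypes, and the difference from stathmin knock-out was -1.30 (SE 0.84, 95% interval -3.13 to 0.54), or -0.65 without stathmin knock-out 2. A second Junb probe, well above background on all 15 arrays, read -0.15 on wild type 4. Relative to wild type it gave 0.09 in p27 knock-out and -1.09 in double knock-out. The probe without wild type 4 gave 0.46 and -0.74. Fosl1, a Fos protein without an activation domain, and Maff ranged over 3.99 and 4.48 log2 units, with the lowest Fosl1 on p27 knock-out 4 and the lowest Maff on stathmin knock-out 1. Both were highest on stathmin knock-out 2. Fosb, another Fos protein, stayed between -1.0 and 1.28. Fosl2, also a Fos protein, ranged from -1.14 to 1.10 on 14 arrays, without p27 knock-out 2. Jun, the main partner of Fos, ranged from -1.12 to 0.55, and Jund, a Jun protein made steadily in resting cells, from -0.68 to 0.99. Those last 2 thus moved less than Fos. Of the 9 AP-1 genes, 5 read above wild type in p27 knock-out, 4 in stathmin knock-out and 1 in double knock-out, with medians of 0.05, -0.01 and -0.66, and none passed.

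The second group of factors joins the zinc finger Egr proteins, the orphan nuclear receptors Nr4a1 and Nr4a2, and the Krüppel-like factors, of which Klf2 and Klf4 are linked to growth arrest. Egr1 read 0.12, 1.74, 0.41 and -0.84 in p27 knock-out, -1.02, 2.02, -0.61 and 1.12 in stathmin knock-out, -0.62, -2.13 and -1.72 in double knock-out, and -1.32, -1.13, 0.15 and 0.86 in wild type. The double knock-out arrays were low, but the highest of them overlapped the lower arrays of each other genotype. Egr1 averaged -1.49 ± 0.79 (SD, n = 3) in double knock-out, against 0.36 ± 1.06 (n = 4) in p27 knock-out, a difference of -1.85 (SE 0.79, 95% interval -3.55 to -0.14, adjusted p = 1 in limma). Against stathmin knock-out, which averaged 0.38 ± 1.44 (n = 4), the difference was -1.87 (SE 0.79, adjusted p = 1). Its interaction was -2.59 (SE 1.08, adjusted p = 0.657), and it was -1.58 without p27 knock-out 2 and stathmin knock-out 2.

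Egr2 and Egr3, close relatives of Egr1, had with Fos the widest ranges. Egr2 read 0.71, -1.0, -1.63 and -1.79 in p27 knock-out, -2.76, 2.04, 0.39 and -0.99 in stathmin knock-out, -3.11, -1.57 and -1.06 in double knock-out, and -2.40, -0.99, 1.66 and 1.79 in wild type. Egr3 read 0.84, -0.94, -2.85 and -2.66 in p27 knock-out, -3.04, 2.40, -0.18 and -0.82 in stathmin knock-out, -3.12, -1.10 and -0.62 in double knock-out, and -1.61, -0.11, 1.19 and 0.99 in wild type. Stathmin knock-out 2 and wild type 3 and 4 were the highest for both, and every genotype held a low array. For double knock-out against wild type the differences were -1.93 for Egr2 (SE 1.18, adjusted p = 1 in limma) and -1.73 for Egr3 (SE 1.20, adjusted p = 1), and with wild type 3 and 4 averaged they were -1.36 and -1.40. The Egr3 difference was -0.98 without double knock-out 1. Relative to wild type, Egr3 in p27 knock-out differed by -1.52 (SE 1.11, adjusted p = 0.796).

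Klf2 separated double knock-out from wild type by order, though not by the test. It read -0.98, -1.10 and -1.71 in double knock-out, against -0.63, -0.32, -0.12 and -0.06 in wild type. On this probe all 3 double knock-out values lay below all wild type values, and the difference was -0.98 (SE 0.50, 95% interval -2.05 to 0.09, adjusted p = 1 in limma). The p27 knock-out arrays at 0.63, 0.06, -0.97 and -1.11 and the stathmin knock-out arrays at -0.62, 0.71, -1.57 and -1.0 overlapped the values of both. A second Klf2 probe varied less, with an SD over arrays of 0.227 against 0.727, and gave -0.28 for the same comparison. On it the groups overlapped, at -0.04, -0.26 and -0.34 in double knock-out, against -0.12, 0.12, 0.07 and 0.18 in wild type. Nr4a2 averaged -0.74 ± 0.83 (SD, n = 4) in p27 knock-out, against 0.12 ± 0.66 (n = 4) in wild type, which is -0.86 relative to wild type (SE 0.55, adjusted p = 0.796), or -0.51 without p27 knock-out 4. Its 4 p27 knock-out values of 0.11, -0.94, -0.33 and -1.81 overlapped the wild type values of -0.86, 0.59, 0.34 and 0.42. Nr4a1 ranged from -2.71 on p27 knock-out 4 to 1.93 on stathmin knock-out 2, and Klf10, a TGF-beta-induced repressor, from -1.52 on double knock-out 1 to 1.64 on stathmin knock-out 2. Klf4 and Klf6 stayed within -0.74 to 0.88 and -0.51 to 0.50. Klf4 differed by -0.47 between double knock-out and stathmin knock-out (SE 0.34, adjusted p = 1), and by -0.21 without stathmin knock-out 2 and -0.30 without double knock-out 3. Of the 9 tested genes of this group, 7 read below wild type in p27 knock-out, 6 in stathmin knock-out and 7 in double knock-out, and none passed.

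The remaining immediate-early genes act after transcription or on growth and survival. Ier2, a small nuclear protein, read -1.07, -1.91 and -1.72 in double knock-out, against 0.40, 1.29, -0.14 and -0.75 in p27 knock-out, with no overlap. The stathmin knock-out arrays read -0.94, 1.45, -1.16 and -0.01 and the wild type arrays -1.69, -0.28, 0.18 and 0.81, so both of these overlapped the double knock-out arrays. The difference between double knock-out and p27 knock-out was -1.77 (SE 0.68, 95% interval -3.22 to -0.31, adjusted p = 1 in limma), and it lay below 0 within each of the 3 slides that held both genotypes (-1.77 to -0.97). Against stathmin knock-out the difference was -1.40 (SE 0.68, adjusted p = 1), or -0.87 without stathmin knock-out 2, and against wild type -1.32 (SE 0.68, adjusted p = 1). A second Ier2 probe, well above background on 14 arrays, varied as much (SD 1.12 against 1.07) and gave 0.17 for double knock-out against p27 knock-out and 1.96 for stathmin knock-out against wild type, where the brightest probe gave 0.08. The 2 probes thus do not give the same account of Ier2.

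Phlda1, a pleckstrin homology-like protein linked to growth control, read 0.96, -0.36, -0.91 and -3.20 in p27 knock-out, -2.66, 1.08, -0.44 and -1.14 in stathmin knock-out, -0.38, -2.39 and -1.21 in double knock-out, and -1.50, -0.91, 0.35 and -0.05 in wild type. Its groups overlapped, and genotype accounted for 5.22% of its variance. Ier3, an inhibitor of cell death, ranged from -3.03 on p27 knock-out 4 to 1.42 on stathmin knock-out 2. Zfp36, also called tristetraprolin, which destabilises mRNAs with AU-rich elements, ranged from -1.56 on double knock-out 2 to 1.82 on p27 knock-out 2, without a value on wild type 4. Ier5 and Btg2 ranged from -0.85 to 1.64 and from -1.13 to 1.47. Btg2, an antiproliferative protein that promotes mRNA deadenylation, was 0.59 above wild type in stathmin knock-out (SE 0.49, adjusted p = 0.907). This was 0.23 without stathmin knock-out 2, 0.29 without wild type 1 and 0.93 without stathmin knock-out 1, and the other 2 Btg2 probes gave 0.31 and 0.23. All 6 genes of this group read below wild type in double knock-out, with a median of -0.63, while 4 read above it in p27 knock-out and 5 in stathmin knock-out. None of the 6 passed. These signs come from 1 probe per gene. Relative to wild type, a second Zfp36 probe gave -0.23 in p27 and -0.55 in stathmin knock-out. The counted probe, which lacks wild type 4, gave 0.79 and 0.49. In double knock-out both lay below wild type. The other 2 Btg2 probes gave -0.20 and -0.54 in p27 knock-out, where the counted one gave 0.20. The second Ier2 probe gave 0.40 in double knock-out, where the counted one gave -1.32.

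**Figure D3:**
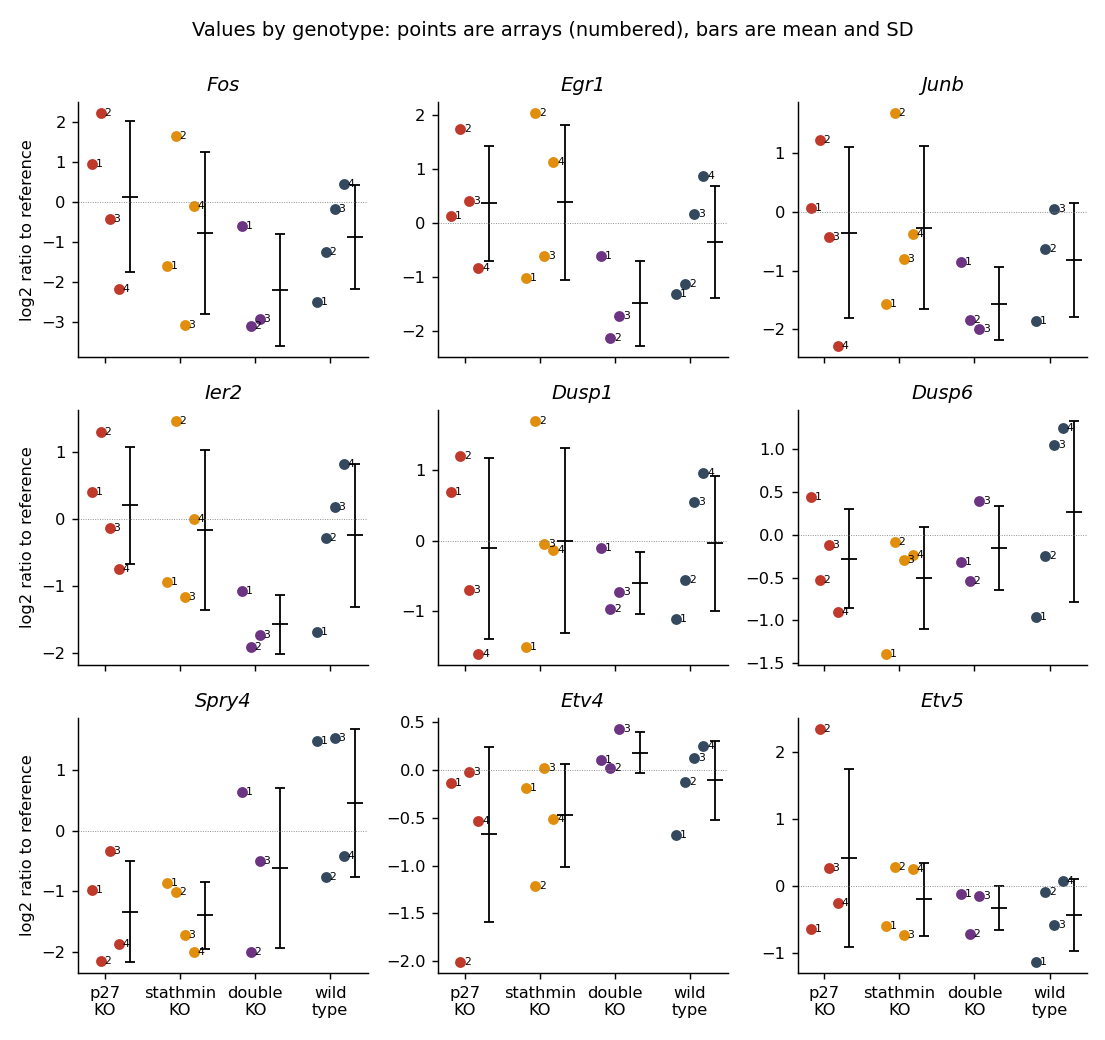
Log2 ratio to the reference pool of 9 members on each array (points, numbered by replicate), with the mean and SD of each genotype (bars) for p27 KO (n = 4), stathmin KO (n = 4), double KO (n = 3) and wild type (n = 4, but 3 for Junb). Points of 1 genotype span most of the axis in Fos, Egr1, Junb and Dusp1, and the stathmin KO points of Spry4 lie below all wild type points.

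The dual-specificity phosphatases are the direct brake on MAP kinases: Dusp1, Dusp2 and Dusp4 act in the nucleus, and Dusp6 acts in the cytoplasm with a preference for ERK. Dusp1, like the members as a whole, was highest on stathmin knock-out 2 and lowest on p27 knock-out 4. It read 0.69, 1.20, -0.71 and -1.61 in p27 knock-out, -1.52, 1.70, -0.05 and -0.13 in stathmin knock-out, -0.11, -0.97 and -0.74 in double knock-out, and -1.11, -0.56, 0.55 and 0.97 in wild type. All 4 genotypes overlapped, with means of -0.11, -0.00122, -0.61 and -0.04 and SDs of 1.29, 1.32, 0.44 and 0.96 in that order. Dusp6 read 0.44, -0.52, -0.12 and -0.91 in p27 knock-out, -1.39, -0.09, -0.30 and -0.23 in stathmin knock-out, -0.32, -0.54 and 0.39 in double knock-out, and -0.96, -0.25, 1.05 and 1.25 in wild type. Wild type 3 and 4 alone were above 1, and wild type 1 was among the lowest arrays. Dusp6 averaged -0.50 ± 0.60 (SD, n = 4) in stathmin knock-out, against 0.27 ± 1.05 (n = 4) in wild type, a difference of -0.77 (SE 0.48, 95% interval -1.80 to 0.25, adjusted p = 0.907 in limma), and of -0.48 with wild type 3 and 4 averaged. Leaving out 1 array it ran from -1.18 without wild type 1 to -0.45 without wild type 4, with -0.48 without stathmin knock-out 1 and -0.52 without wild type 3. Dusp4 differed by -0.97 in the same comparison (SE 0.78, adjusted p = 0.907), without wild type 4. On this probe wild type 3, at 1.96, was far above wild type 1 and 2 at -1.62 and -0.25, and the difference was 4.62e-05 without wild type 3, -1.79 without wild type 1 and -0.56 without stathmin knock-out 4. The second Dusp4 probe, well above background on all 15 arrays, has a value on wild type 4: it read -1.09, -0.23, 1.68 and 1.52 in wild type and gave -1.12 for the same comparison. Dusp2 ranged from -1.68 on stathmin knock-out 4 to 1.74 on p27 knock-out 1. Of the 4 phosphatases, all read below wild type in p27 knock-out and in double knock-out and 3 did so in stathmin knock-out, with medians of -0.32 in p27 knock-out, -0.65 in stathmin knock-out and -0.61 in double knock-out, and none passed.

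Among the Sprouty and Spred proteins, Spry4 had the largest share of its variance between genotypes of any member, 44.9%. Spry4 read -0.99, -2.15, -0.34 and -1.86 in p27 knock-out, -0.87, -1.01, -1.72 and -1.99 in stathmin knock-out, 0.64, -1.99 and -0.49 in double knock-out, and 1.47, -0.77, 1.52 and -0.42 in wild type. All 4 stathmin knock-out values were below all wild type values, while in p27 knock-out 3 of 4 were and the fourth, at -0.34, lay above wild type 2 and 4. Its mean was -1.33 ± 0.83 (SD, n = 4) in p27 knock-out and -1.40 ± 0.54 (n = 4) in stathmin knock-out, against 0.45 ± 1.21 (n = 4) in wild type. The differences of -1.78 in p27 knock-out (SE 0.64, 95% interval -3.17 to -0.39) and -1.85 in stathmin knock-out (SE 0.64, 95% interval -3.24 to -0.46) did not pass in limma (adjusted p = 0.796 and 0.907). Both were below 0 within every slide, from -2.45 to -1.38 for p27 knock-out and from -3.24 to -0.25 for stathmin knock-out. With wild type 3 and 4 averaged they were -1.75 and -1.81. On this probe wild type 3 was high and wild type 4 was not. In double knock-out the mean was -0.62 ± 1.32 (n = 3), which differed from wild type by -1.07 (SE 0.70, adjusted p = 1). That difference was -0.38 without double knock-out 2, -0.71 without wild type 3 and -1.69 without double knock-out 1. The interaction was 2.56 (SE 0.95, 95% interval 0.52 to 4.61, adjusted p = 0.652). A second, dimmer Spry4 probe, well above background on 6 arrays, gave -0.54 in p27 knock-out, -0.45 in stathmin knock-out and -0.37 in double knock-out, each relative to wild type. On it stathmin knock-out and wild type overlapped, at 0.20, -0.15, -0.36 and -0.05 in stathmin knock-out, against -0.33, 0.03, 0.85 and 0.88 in wild type, so both wild type 3 and 4 were high and wild type 1 was low. The 2 probes thus order the wild type arrays differently.

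Spry1 was lowest on p27 knock-out 2, at -2.70, and otherwise stayed between -0.99 and 0.77. Its 3 double knock-out values of 0.10, 0.12 and 0.26 lay above the wild type values of -0.14, 0.08, -0.19 and 0.02 by a small step, a difference of 0.21 (SE 0.61, adjusted p = 1 in limma). Spry2 ranged from -0.94 to 0.88, Spred1 from -0.68 to 0.61 and Spred2 from -0.75 to 0.77. Their SDs over arrays of 0.47, 0.323 and 0.423 were closer to those of all genes than those of Fos and Egr1, at 1.72 and 1.25.

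Etv4 and Etv5 are ETS factors of the PEA3 group, which ERK signalling induces. Etv4 read -0.14, -2.01, -0.02 and -0.54 in p27 knock-out, -0.19, -1.21, 0.02 and -0.51 in stathmin knock-out, 0.10, 0.02 and 0.42 in double knock-out, and -0.68, -0.13, 0.13 and 0.25 in wild type. The double knock-out values lay above all values of each single knock-out, the lowest of them by 0.001 over stathmin knock-out 3, and they overlapped the wild type values. The differences were 0.86 from p27 knock-out (SE 0.43, 95% interval -0.06 to 1.77, adjusted p = 1 in limma) and 0.65 from stathmin knock-out (SE 0.43, adjusted p = 1). Without p27 knock-out 2 and stathmin knock-out 2 they were 0.41 each. Etv5 read -0.64, 2.34, 0.27 and -0.25 in p27 knock-out, -0.60, 0.29, -0.73 and 0.26 in stathmin knock-out, -0.11, -0.71 and -0.14 in double knock-out, and -1.12, -0.09, -0.58 and 0.08 in wild type. Its p27 knock-out mean exceeded that of wild type by 0.86 (SE 0.53, adjusted p = 0.796), with p27 knock-out 2 far above the rest: without this array and stathmin knock-out 2 it was 0.22. A second Etv5 probe, well above background on all 15 arrays, gave 0.37 for p27 knock-out against wild type. It varied less, with an SD over arrays of 0.347 against 0.802.

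The co-variation of the members was measured for 8 pairs over the arrays, with p-values from 100000 permutations adjusted over the 8. Fos and Egr1 rose and fell together (Pearson r = 0.898, permutation p = 2e-05, adjusted 8e-05; Spearman rho = 0.864, permutation p = 6e-05, adjusted 0.00024; n = 15), with r = 0.851 without the 2 arrays farthest from the median. Fos and Junb did so as well (r = 0.901, permutation p = 4e-05, adjusted 0.000107, rho = 0.864, permutation p = 0.00012, adjusted 0.00032, n = 14, r = 0.814 without 2 arrays). Egr1 and Ier2 had r = 0.927 (permutation p = 1e-05, adjusted 8e-05, rho = 0.889, permutation p = 2e-05, adjusted 0.00016, n = 15, r = 0.868 without 2 arrays), where 1e-05 is the smallest p these permutations can give. Each gene entered the correlations by 1 probe. The second Ier2 probe, which gave another account of Ier2, was not correlated. Fos and Fosb had r = 0.708 (permutation p = 0.00364, adjusted 0.00728, rho = 0.711, permutation p = 0.00425, adjusted 0.0085, n = 15, r = 0.857 without 2 arrays). With genotype and slide effects removed by an additive fit, r was 0.950 for Fos and Egr1, 0.948 for Fos and Junb, 0.909 for Egr1 and Ier2, and 0.769 for Fos and Fosb. A slide holds 3 or 4 arrays, too few for a correlation of its own. All values of an array share a hybridisation and a reference.

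The 4 pairs that hold a feedback gene had r between -0.674 and 0.317, and whether they differ from the other pairs was not tested. Egr1 and Dusp6 had r = 0.317 (permutation p = 0.251, adjusted 0.335, rho = 0.45, permutation p = 0.0946, adjusted 0.151, n = 15, r = 0.503 without 2 arrays), and r = 0.584 with genotype means removed and 0.685 with slide effects removed as well. Dusp6 and Spry4 had r = 0.286 (permutation p = 0.301, adjusted 0.344, rho = 0.304, permutation p = 0.27, adjusted 0.309), which was -0.044 without wild type 3 and 4. Dusp6 and Etv5 had r = 0.038 (permutation p = 0.884, adjusted 0.884, rho = 0.329, permutation p = 0.232, adjusted 0.309, r = 0.124 without the same 2 arrays). Etv4 and Etv5 had r = -0.674 (permutation p = 0.0245, adjusted 0.0392) but rho = -0.207 (permutation p = 0.46, adjusted 0.46), and r was 0.240 without p27 knock-out 2 and stathmin knock-out 2, so the negative relation rests on these 2 arrays.

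**Figure D4:**
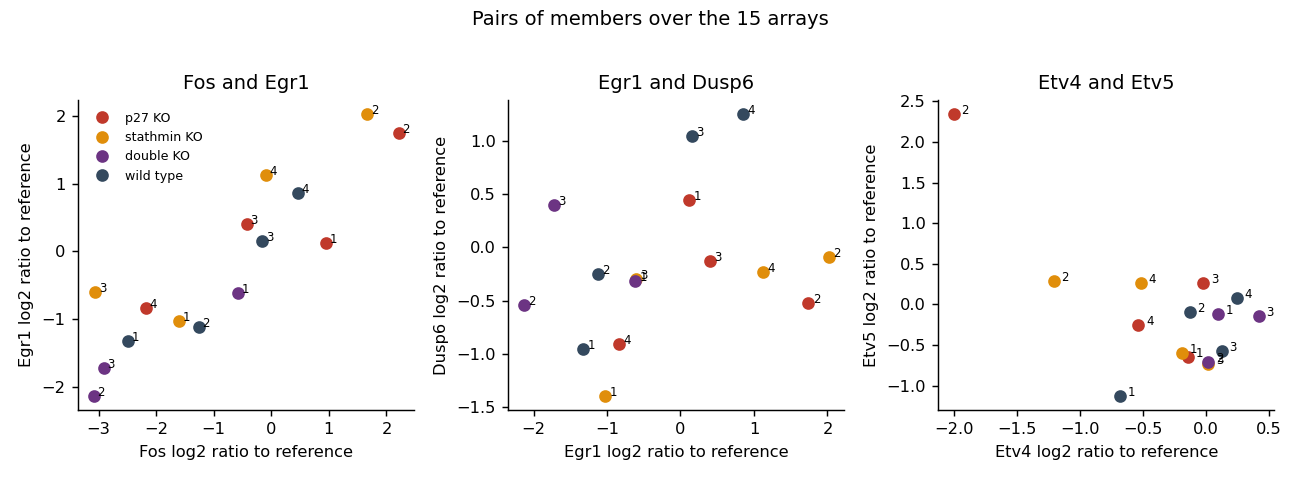
Log2 ratios of 3 pairs of members over the 15 arrays, coloured by genotype and numbered by replicate: Egr1 against Fos (r = 0.898), Dusp6 against Egr1 (r = 0.317) and Etv5 against Etv4 (r = -0.674). The points of Fos and Egr1 form a line with all genotypes mixed along it, and in the last panel p27 knock-out 2 stands alone in the upper left.

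The genes around the members in the pathway were measured as well. The 39 tested genes of the ERK cascade run from receptors through Ras, Raf and MEK to ERK and its targets. Their mean log2 ratio stayed between -0.15 and 0.03 on all 15 arrays. Such a mean can stay level while single genes rise and fall. None of the 39 genes passed in any comparison (limma). In p27 knock-out against wild type, 20 read higher and 19 lower, where 52.7% and 47.3% of all genes did. The smallest p-values belonged to Pdgfrb, a PDGF receptor (0.62, SE 0.20, adjusted p = 0.796), and Rps6ka1, a kinase activated by ERK (0.62, SE 0.25, adjusted p = 0.796). In double knock-out against p27 knock-out, 24 were higher and 15 lower, where 47.7% and 52.3% of all genes were. The smallest p-values were those of Rasa1, which turns Ras off (0.78, SE 0.28, adjusted p = 1), and Pdgfrb (-0.56, SE 0.22, adjusted p = 1).

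A further list held other genes that growth factors induce, not sorted by how soon they rise. Its 23 tested genes were highest and lowest on the same arrays as the members: their mean was 1.20 on stathmin knock-out 2 and -1.30 on p27 knock-out 4. In p27 knock-out against wild type 19 of 23 read lower, where 47.3% of all genes did, with a median of -0.47, and none passed. Their mean was 0.48, -0.63, -0.43 and -1.30 on the p27 knock-out arrays, against -0.84, -0.18, 0.60 and 0.65 on the wild type arrays, and the groups overlapped. The smallest p-values were those of the chromatin proteins Hmga2 (-0.80, SE 0.23, adjusted p = 0.796) and Hmga1 (-0.58, SE 0.20, adjusted p = 0.796). In double knock-out against p27 knock-out, 11 were higher and 12 lower, where 47.7% and 52.3% of all genes were, with Hmga2 at 0.96 (SE 0.25, adjusted p = 1) and Bhlhe40, a clock-linked repressor, at -0.66 (SE 0.21, adjusted p = 1). The 5 tested heat shock genes, which rise when proteins unfold under stress, had means between -0.53 on p27 knock-out 4 and 0.35 on double knock-out 1, and read 0.31 on stathmin knock-out 2. None of them passed. In p27 knock-out against wild type the smallest p-values were those of Hsph1 (-0.43, SE 0.25, adjusted p = 0.796) and Hspb1 (-0.34, SE 0.37, adjusted p = 0.847), both chaperones. In double knock-out against p27 knock-out they were those of Hsph1 (0.64, SE 0.27, adjusted p = 1) and its partner chaperone Dnajb1 (-0.27, SE 0.19, adjusted p = 1).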

How the data were processed

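RNA of 15 cultures was measured on 2-colour Agilent mouse arrays, 1 array per culture. Per the labels, the sample carried Cy5 and a pool of fibroblast RNA carried Cy3, with no dye swap. The deposited scanner output, made with Feature Extraction 9.1.3.1 per the file headers, holds spot intensity and local background; its deposited ratio is a log10 of red over green. The authors' deposited value table is in log2 of sample over reference, with a normalization that is not given in the sources used here. Its scale and direction were read from the scanner ratios (r = 0.821 to 0.936 per array, slope 0.958 to 0.994 over bright spots after conversion to log2, column medians 0.0039 to 0.0522), and its centring is unknown.

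In limma 3.58.1 (R 4.3.3), mean spot signals were corrected by normexp with an offset of 50 and normalised by loess within arrays. Outlier spots were left out and spots of a probe averaged. Probes were tested where the sample signal stood well above background on 3 or more arrays of some genotype, and the brightest tested probe stood for a gene; 14 members have several probes. Names came from the RefSeq table (GRCm38.p6) by accession for 18206 of 27700 tested probes, by current symbol for 4017 and by older symbol for 1906, and 3571 kept the name in the file, where Jund stands as Jund1. All 15 arrays were fitted together with genotype means, which left 11 residual degrees of freedom. All tests were two-sided, and p-values were moderated by limma and adjusted by Benjamini-Hochberg over all genes of a comparison. The interaction is double minus p27 minus stathmin knock-out plus wild type.

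The replicate numbers of the labels were checked for pairing: the residuals of 21 same-numbered pairs of arrays correlated at -0.324 to 0.426. Of the 21, 12 exceeded the limit set for pairing and the others did not, so the check did not settle it. Number and slide coincide except for double knock-out 2 and 3, on slides 3 and 4. The main fit did not pair samples, and blocks by slide and by replicate number were alternatives. In each comparison the 5 members with the smallest p are named where fewer than 5 passed, all other members by their range, and 2 genes per pathway list. Values per array are given for those members the text turns on. The members and the lists were chosen with earlier results of these data known. Correlations used scipy 1.17.1 under Python 3.11.15, and figures matplotlib 3.10.9. The fit was tested on simulated data. Alternatives covered background correction, normalization, filters, probes, blocks, array weights, the variance model, the authors' table, the sample channel alone and leaving out arrays.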

Additional observations from a re-analysis of the deposited data

Results flagged for a closer look

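In groups of 4 arrays, 101 sets of member values were checked for a single array far from the other three by Dixon's criterion, and 5 met it, about as many as chance gives (about 1 in 20). On p27 knock-out 4, Fosl1 read -2.73, against 0.05 to 0.59 on the other p27 knock-out arrays, and Ier5 read -0.85, against 0.11 to 0.28. On wild type 1, Atf3 read -0.90, against 0.34 to 0.41 on the other wild type arrays, and Nr4a1 read -2.40, against 0.34 to 0.62. On stathmin knock-out 1, Dusp6 read -1.39, against -0.30 to -0.09 on the other stathmin knock-out arrays. In all 5 the far array was the low one.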

How the results depend on the processing

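Under 33 alternatives per comparison, 1 of them chosen after seeing the data (p27 knock-out 2 and stathmin knock-out 2 left out together), 0 members passed in every comparison, and the smallest adjusted p of any member was 0.0894 (Ier2, double knock-out against wild type, array weights). Loess followed by Aquantile leaves log ratios as they are. The members' median differences moved by less than 0.668 from their main values. That limit is the SD between replicates of the members' median level on an array. It is wider than any of the main medians, so a change of sign can fall within it. Over all alternatives the medians ran from -0.42 to 0.19 for p27 knock-out, -0.46 to 0.34 for stathmin knock-out and -0.98 to -0.31 for double knock-out, each against wild type. They ran from -0.57 to -0.06 and -0.64 to -0.04 for double against p27 and stathmin knock-out, and from -0.57 to 0.19 for the interaction. For the 5 members with the smallest p in each comparison, 30 results under 32 alternatives each, values kept their sign in 959 cases and changed it in 1. Many of the 959 could not change. Leaving out or averaging arrays of a genotype not compared leaves the difference as it is. So do Aquantile, another variance model and a fit of only the genotypes compared. The 1 change was Dusp4 in stathmin knock-out against wild type, which ran from -1.79 to 4.62e-05 leaving out 1 array, the last without wild type 3.

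Calls over all genes were few and changed with the setting. In stathmin knock-out against wild type, 1 gene passed, against 2 with every probe tested separately, with the slide block and with the replicate block, 11 with array weights, 0 with the sample channel alone, with only the genotypes compared and without the 2 arrays above, and 0 to 2 leaving out 1 array. In double knock-out against wild type, 0 passed, against 1 with the scanner software's processed signals, the authors' table, every probe, the slide block and the replicate block, 11 with array weights, and 0 to 1 leaving out 1 array. Double against p27 knock-out had 0, against 1 with the processed signals, the authors' table, the mean of a gene's probes, every probe, the slide block and the replicate block, and 0 to 1 leaving out 1 array. Double against stathmin knock-out had 0, and 0 to 1 leaving out 1 array; the interaction had 0, against 1 with array weights and 0 to 1 leaving out 1 array. The replicate block changed no call of a member. Among the 15 arrays, 5 correlated best with one that shared their number. The cause of these changes was not tested.

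Among the correlations, Dusp6 with Spry4 was -0.044 without 2 arrays, Dusp6 with Etv5 was -0.035 in the authors' table and -0.033 in the sample channel alone, and Etv4 with Etv5 was 0.240 without 2 arrays and -0.523 with median centring (adjusted permutation p = 0.0975).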
